A study of Homo sapiens with 10 samples.

Results

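WNT ligands, their receptors and their secreted antagonists were examined in human sensory neuron cultures made from embryonic stem cells. The genes were taken by symbol, with no use of measured values, and they are 51 of 30357 named genes: 19 WNT ligands, 10 Frizzled (FZD) receptors, the co-receptors LRP5, LRP6, ROR1, ROR2 and RYK, 11 secreted antagonists (the SFRP and DKK families, FRZB, WIF1 and NOTUM), 4 R-spondins (RSPO), and the target genes AXIN2 and LEF1. The cells were the RUES2-Avil:tdT line, an established human embryonic stem cell line that, by its name, carries a tdTomato reporter of advillin, a gene of sensory neurons. Bulk RNA-seq was made at day 60 in vitro (DIV60) from 3 libraries of a proprioceptor protocol, 3 of a mechanoreceptor protocol and 4 of a nociceptor protocol, which aim at muscle-stretch, touch and pain neurons. All 10 libraries came from this 1 line, the labels did not say whether replicates were separate differentiations or whether cells were sorted, and p-values therefore reflect only how these libraries vary, which may be technical. The labels name no WNT pathway agent, and which ones the protocols used is unknown here.

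WNT proteins are secreted, lipid-modified ligands that bind FZD receptors. With LRP5 or LRP6 they stabilise β-catenin, which acts with TCF and LEF factors on target genes, and with ROR or RYK they act on cell polarity and axon growth without β-catenin. SFRP proteins bind WNT ligands, DKK1 blocks LRP5 and LRP6, and R-spondins keep FZD receptors on the surface. WNT signals induce the neural crest and later guide and branch the axons of sensory neurons.

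Named genes received between 27891186 and 44541262 estimated counts per library. The labelled cell type was checked with marker lists. All 12 neuron markers reached 1 TPM (transcript abundance as a share of the library, corrected for transcript length) in every library, and 8 or 9 of 10 sensory neuron markers did. Markers of other cells were found too. The 12 mesenchyme markers summed to 19.5 to 1469 TPM in proprioceptor, 18.1 to 1259 in mechanoreceptor and 181 to 3892 in nociceptor libraries. The 12 glia markers summed to 272 to 3245, 500.4 to 2695 and 1211 to 6841 TPM in the same order. Proprioceptor library 2, mechanoreceptor library 3 and nociceptor libraries 1 to 3 had 1259 TPM or more of mesenchyme markers, and the other 5 libraries had 181 or less. COL1A1, COL1A2 and FN1 were the largest mesenchyme markers in the high libraries, with 1984, 1510 and 347 TPM in nociceptor library 3. TWIST1 stayed at 0.396 TPM or less and PDGFRA at 2.57 TPM or less in every library. DCN was higher in proprioceptor library 3 (5.56 TPM) than in proprioceptor library 2 (2.66 TPM), whereas POSTN followed the sum (0.489 against 20.3 TPM). In bulk samples, fewer cells of a type and less RNA per cell cannot be told apart. Proprioceptor library 1 had the lowest level of all libraries for 14 of 37 tested family genes and for 46.0% of all tested genes.

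Many genes of the family were under 1 TPM in these cultures, as were many of all named genes. Only 9 of the 51 genes reached 1 TPM in all 10 libraries, 25 did in some, and 17 in none. A library held between 13 and 27 of them, the fewest in proprioceptor library 1 and the most in proprioceptor library 2 and mechanoreceptor library 3 (27 and 26). Of all 30357 named genes, 12066 to 14160 reached 1 TPM in a library. The fewest and the most were again in proprioceptor library 1 and proprioceptor library 2. The ligands WNT5B, WNT10B and WNT4, the receptor FZD3, the co-receptors RYK and LRP6 and the antagonists DKK3, DKK1 and SFRP1 were the 9 present throughout. Summed over a role, antagonists had 289 to 494 TPM per library, ligands 31.7 to 75.4, FZD receptors 12.1 to 62.0, co-receptors 6.02 to 40.7 and R-spondins 2.67 to 19.5.

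**Figure D1:**
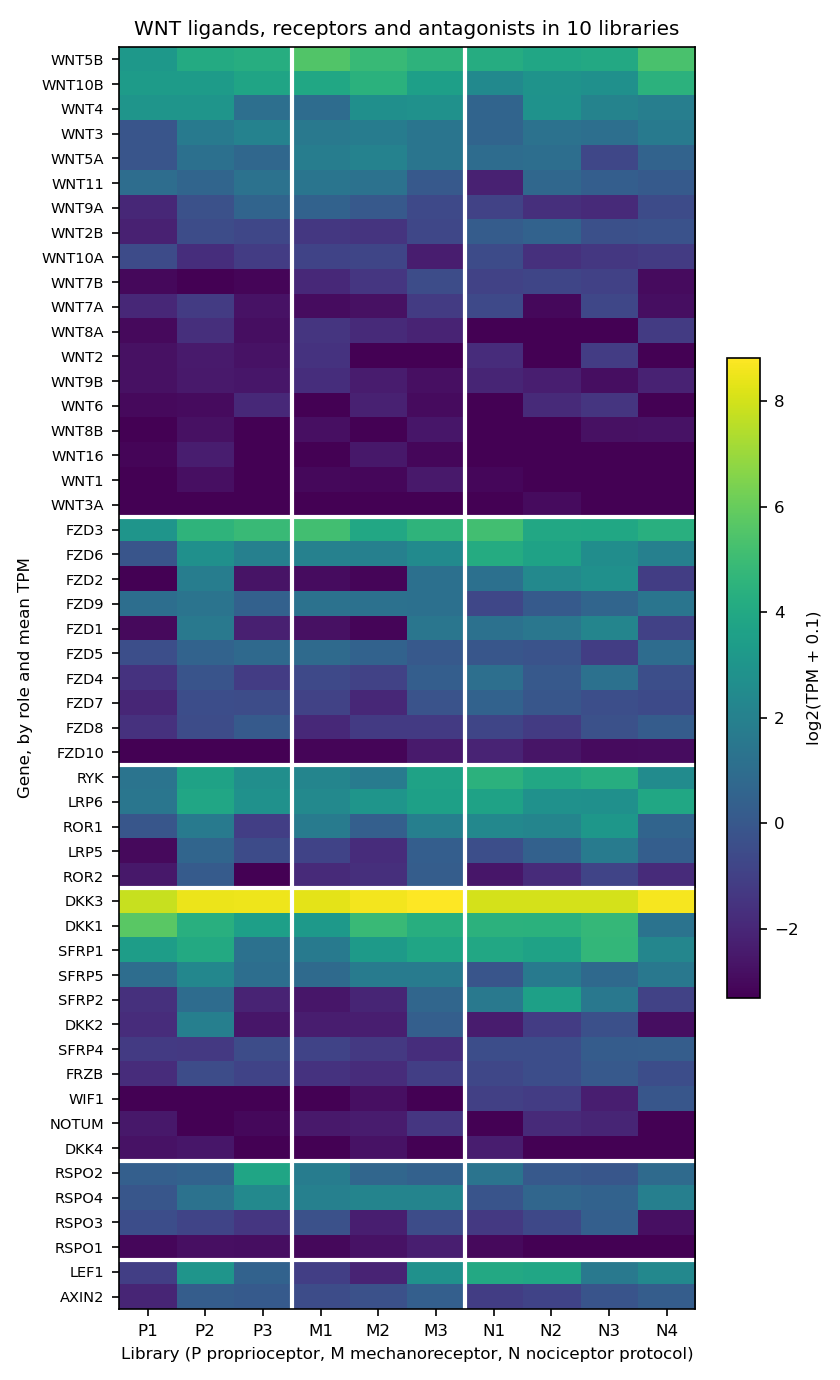
Level of each of the 51 genes (rows, grouped by role in the order ligands, FZD receptors, co-receptors, antagonists, R-spondins, targets) in each of 10 libraries (columns), as log2(TPM + 0.1). DKK3 is the brightest row in every library, FZD3 and WNT5B lead their roles, and 17 rows stay under 1 TPM.

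Promoter sequences are shown for 4 genes: WNT5B, the leading ligand, FZD1 and SFRP2, 2 genes that were high in the same libraries, and DKK1. DKK1 is an antagonist that is itself a known β-catenin target. FZD1 was chosen after its values were seen, and SFRP2 too lay outside the rule for genes given by level. Each runs 5′ to 3′ from 250 bases before to 50 bases after the RefSeq gene start on GRCh38.p14, on the plus strand for WNT5B, FZD1 and DKK1 and on the minus strand for SFRP2. Capitals mark the TCF/LEF core CTTTGAT or CTTTGAA, searched on both strands.
WNT5B chr12:1616806-1617105: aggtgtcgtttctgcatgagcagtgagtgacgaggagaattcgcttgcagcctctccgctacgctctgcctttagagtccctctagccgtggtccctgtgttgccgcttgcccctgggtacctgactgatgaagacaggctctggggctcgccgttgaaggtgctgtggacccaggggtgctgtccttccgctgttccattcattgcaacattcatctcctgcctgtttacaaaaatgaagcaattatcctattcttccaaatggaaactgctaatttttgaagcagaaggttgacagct
FZD1 chr7:91264183-91264482: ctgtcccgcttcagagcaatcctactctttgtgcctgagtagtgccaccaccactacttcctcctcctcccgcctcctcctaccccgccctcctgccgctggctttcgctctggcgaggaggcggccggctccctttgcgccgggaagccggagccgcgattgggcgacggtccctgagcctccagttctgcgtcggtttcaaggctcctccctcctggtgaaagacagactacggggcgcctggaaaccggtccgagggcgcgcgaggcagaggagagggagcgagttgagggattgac
SFRP2 chr4:153789034-153789333: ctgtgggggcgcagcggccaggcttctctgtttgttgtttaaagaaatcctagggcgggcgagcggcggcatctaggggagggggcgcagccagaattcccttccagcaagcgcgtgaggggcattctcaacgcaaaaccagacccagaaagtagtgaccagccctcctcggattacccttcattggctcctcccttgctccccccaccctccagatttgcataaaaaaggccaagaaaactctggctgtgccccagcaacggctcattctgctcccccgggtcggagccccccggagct
DKK1 chr10:52314031-52314330: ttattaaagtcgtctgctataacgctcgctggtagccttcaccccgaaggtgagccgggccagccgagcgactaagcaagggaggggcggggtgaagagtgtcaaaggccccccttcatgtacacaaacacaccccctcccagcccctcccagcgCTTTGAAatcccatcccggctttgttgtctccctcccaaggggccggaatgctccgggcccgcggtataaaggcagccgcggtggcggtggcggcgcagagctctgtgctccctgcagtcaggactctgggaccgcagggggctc
Of 51 genes, 35 had a promoter in the RefSeq table. DKK1 alone among the 35 held a core (2.86%), CTTTGAA on the plus strand, 95 bases before the start, while 6.86% of 35116 human promoters of the same length held either core. The cores differ in their last letter and so never count the same site. A match is a description of letters, not a binding site. G and C made up 51.7% of the WNT5B window, 65.7% of FZD1, 60.3% of SFRP2 and 63.7% of DKK1. The main WNT5B transcript in the data began at the RefSeq start shown.

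Among the ligands, WNT5B led in 9 of 10 libraries and WNT10B in proprioceptor library 1. WNT5B acts mostly without β-catenin and lies on chromosome 12, 1617056 to 1647212, of GRCh38.p14. In order of library number, WNT5B had 8.92, 17.3 and 18.9 TPM in proprioceptor libraries, 46.4, 29.4 and 23.2 TPM in mechanoreceptor libraries and 18.2, 14.6, 15.9 and 40.3 TPM in nociceptor libraries. All proprioceptor libraries were under all mechanoreceptor libraries, and the nociceptor libraries spanned both, with library 4 far above its other 3. Its mean was 15.04 ± 5.37 TPM in proprioceptor, 33.02 ± 12.04 in mechanoreceptor and 22.3 ± 12.1 in nociceptor libraries (SD, n = 3, 3 and 4). The transcript that starts at 1617056 held 62.3% of the gene's TPM on average (46.7% to 72.4% per library). Coding transcripts that start upstream at 1530819 and downstream at 1629197 held 13.9% and 13.2%.

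WNT10B, a ligand that acts through β-catenin (chromosome 12, 48965340 to 48971735), had 10.03, 9.90 and 13.7 TPM in proprioceptor libraries, 15.2, 21.3 and 11.4 TPM in mechanoreceptor libraries and 5.30, 7.38, 6.67 and 21.98 TPM in nociceptor libraries. Nociceptor libraries 1 to 3 were the lowest 3 of the 10 and nociceptor library 4 the highest. WNT4, with roles in kidney and gonad, had 7.98, 7.97 and 2.07 TPM in proprioceptor libraries, 1.86, 6.54 and 6.92 TPM in mechanoreceptor libraries and 1.43, 7.26, 4.21 and 3.62 TPM in nociceptor libraries. The protocols overlapped. WNT3, a β-catenin ligand of early patterning, had 0.807, 3.08 and 4.13 TPM in proprioceptor libraries, 2.90, 3.35 and 2.498 TPM in mechanoreceptor libraries and 1.41, 2.29, 2.09 and 3.07 TPM in nociceptor libraries, again with overlap. Most of the WNT3 entry lay in transcripts that the annotation used here did not match (11.3% matched), so its promoter use was not examined.

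By TPM, some of the less abundant ligands separated the libraries of some protocols. WNT5A, a ligand of ROR receptors, had 0.821, 2.15 and 1.56 TPM in proprioceptor libraries, 3.39, 4.12 and 2.499 TPM in mechanoreceptor libraries and 1.85, 2.03, 0.509 and 1.36 TPM in nociceptor libraries. The mechanoreceptor libraries stood above every other library by TPM. On counts scaled to library size (CPM, with TMM scaling), mechanoreceptor library 3 (6.96) was under nociceptor library 2 (7.21). WNT2B, a β-catenin ligand (chromosome 1, 112466541 to 112530165), had 0.119, 0.612 and 0.499 TPM in proprioceptor libraries, 0.297, 0.250 and 0.494 TPM in mechanoreceptor libraries and 1.04, 1.33, 0.691 and 0.747 TPM in nociceptor libraries, and all 4 nociceptor libraries stood above the other 6. WNT7B, a ligand of lung development in mice (chromosome 22, 45920366 to 45977162), had 0.0201, 0 and 0.0107 TPM in proprioceptor libraries, 0.161, 0.275 and 0.606 TPM in mechanoreceptor libraries and 0.435, 0.478, 0.405 and 0.0269 TPM in nociceptor libraries, which are 2, 0 and 1 counts, 12, 20 and 38 counts, and 35, 47, 26 and 2 counts. The proprioceptor libraries were at or near 0, and nociceptor library 4 was as low. The remaining 12 ligands stayed at 2.58 TPM or less. WNT11 (0.118 to 2.58 TPM) and WNT9A (0.153 to 1.39 TPM) reached 1 TPM in some libraries, and WNT3A had counts in nociceptor library 2 only.

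**Figure D2:**
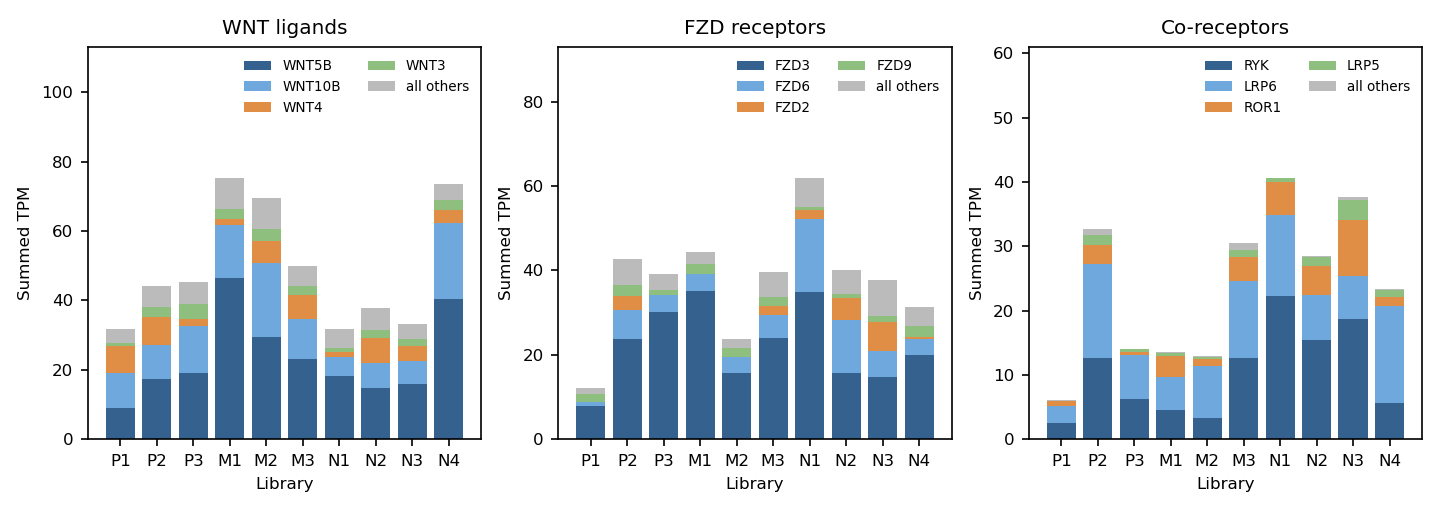
Summed TPM of the WNT ligands, FZD receptors and co-receptors in each library, stacked by gene; the 4 genes with the highest mean TPM of each role are coloured and the rest are grey. WNT5B and WNT10B make up most of the ligand RNA, FZD3 is the largest receptor in every library, and proprioceptor library 1 is lowest for receptors (12.1 TPM) and co-receptors (6.02 TPM).

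FZD3 was the largest receptor in every library, with 38.9% to 79.3% of FZD TPM. In mice FZD3 steers growing axons. FZD3 had 7.95, 23.8 and 30.2 TPM in proprioceptor libraries, 35.2, 15.6 and 24.1 TPM in mechanoreceptor libraries and 34.8, 15.6, 14.8 and 19.97 TPM in nociceptor libraries, with proprioceptor library 1 lowest and the protocols overlapping. Over all libraries, 54.5% of the FZD3 TPM was assigned to a short coding transcript model (43.3% to 64.7% per library), while the 2 models that reach the gene's end held 23.7% and 3.39%. The TPM of FZD3 thus depends on how reads were divided between models of very different length. By counts, which carry no length correction, FZD3 had 955 to 3169 per library.

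FZD6, a polarity receptor that in mice orients hair, had 0.823, 6.65 and 3.83 TPM in proprioceptor libraries, 3.88, 3.82 and 5.46 TPM in mechanoreceptor libraries and 17.4, 12.7, 6.02 and 3.83 TPM in nociceptor libraries. Nociceptor libraries 1 and 2 stood above all others, and nociceptor library 4 lay within the other protocols. FZD9, a receptor of brain and muscle, had 1.98, 2.49 and 1.26 TPM in proprioceptor libraries, 2.33, 2.21 and 2.13 TPM in mechanoreceptor libraries and 0.502, 0.998, 1.46 and 2.54 TPM in nociceptor libraries. FZD4, which also binds norrin and shapes retinal vessels, had 0.246, 0.781 and 0.343 TPM in proprioceptor libraries, 0.538, 0.433 and 1.12 TPM in mechanoreceptor libraries and 2.04, 0.938, 2.19 and 0.661 TPM in nociceptor libraries. For FZD4, nociceptor libraries 1 and 3 were highest and nociceptor library 4 lay within the mechanoreceptor range. FZD8 had 0.237, 0.612 and 0.984 TPM in proprioceptor libraries, 0.168, 0.322 and 0.320 TPM in mechanoreceptor libraries and 0.475, 0.337, 0.699 and 1.06 TPM in nociceptor libraries, with every mechanoreceptor library under every nociceptor library. FZD2 had 0, 3.47 and 0.0564 TPM in proprioceptor libraries, 0.0338, 0.0113 and 2.13 TPM in mechanoreceptor libraries and 2.15, 5.24, 6.85 and 0.365 TPM in nociceptor libraries. It had 0 counts in proprioceptor library 1, which allows up to 0.108 CPM, counts scaled to library size (counting error only). FZD5 (0.355 to 1.86 TPM) and FZD7 (0.150 to 1.31 TPM) were low, and FZD10 stayed at 0.132 TPM or less.

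RYK and LRP6 were the main co-receptors. RYK, a pseudokinase that repels axons from WNT ligands in mice (chromosome 3, 134157133 to 134250859), had 2.49, 12.6 and 6.22 TPM in proprioceptor libraries, 4.53, 3.24 and 12.6 TPM in mechanoreceptor libraries and 22.2, 15.4, 18.7 and 5.69 TPM in nociceptor libraries. Nociceptor libraries 1 to 3 were highest, followed by proprioceptor library 2 and mechanoreceptor library 3. LRP6, the partner of FZD in β-catenin signalling, had 2.59, 14.6 and 6.90 TPM in proprioceptor libraries, 5.19, 8.10 and 11.99 TPM in mechanoreceptor libraries and 12.7, 6.95, 6.70 and 14.9 TPM in nociceptor libraries, and its close relative LRP5 had 0.0223, 1.45 and 0.584 TPM in proprioceptor libraries, 0.451, 0.189 and 1.16 TPM in mechanoreceptor libraries and 0.658, 1.28, 3.17 and 1.15 TPM in nociceptor libraries. ROR1, a receptor of WNT5A, had 0.851, 3.05 and 0.375 TPM in proprioceptor libraries, 3.22, 1.17 and 3.72 TPM in mechanoreceptor libraries and 5.04, 4.58, 8.64 and 1.42 TPM in nociceptor libraries. All 3 overlapped between protocols. ROR2, chosen after its values were seen, had 0.0737, 1.03 and 0 TPM in proprioceptor libraries, 0.173, 0.215 and 1.09 TPM in mechanoreceptor libraries and 0.0682, 0.178, 0.464 and 0.181 TPM in nociceptor libraries, with the only values over 1 TPM in proprioceptor library 2 and mechanoreceptor library 3.

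DKK3 held 77.3% to 96.9% of the antagonist TPM of a library. It is a divergent DKK protein whose action on WNT signalling is unsettled, and its gene lies at chromosome 11, 11963036 to 12009745. DKK3 had 223, 352 and 369 TPM in proprioceptor libraries, 322, 392.1 and 454 TPM in mechanoreceptor libraries and 261, 267, 265 and 408 TPM in nociceptor libraries. The protocols overlapped, and nociceptor library 4 stood apart from nociceptor libraries 1 to 3, which lay between 261 and 267 TPM. Of the DKK3 entry, 35.4% was matched to annotated transcripts.

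DKK1, the inhibitor of LRP5 and LRP6 whose promoter is printed above (chromosome 10, 52314281 to 52317657), had 51.9, 20.02 and 11.3 TPM in proprioceptor libraries, 9.57, 30.4 and 19.6 TPM in mechanoreceptor libraries and 22.6, 21.5, 27.6 and 2.36 TPM in nociceptor libraries. It was highest in proprioceptor library 1, the library with the fewest family genes, and lowest in nociceptor library 4. SFRP1, a secreted WNT-binding protein, had 10.6, 16.4 and 2.23 TPM in proprioceptor libraries, 3.09, 9.78 and 14.05 TPM in mechanoreceptor libraries and 15.7, 12.5, 25.95 and 4.70 TPM in nociceptor libraries. SFRP5 had 1.93, 4.82 and 2.00 TPM in proprioceptor libraries, 1.72, 3.26 and 3.18 TPM in mechanoreceptor libraries and 0.816, 3.14, 1.67 and 2.82 TPM in nociceptor libraries. Neither was separated between protocols.

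SFRP2, which mesenchymal cells secrete, had 0.221, 1.83 and 0.128 TPM in proprioceptor libraries, 0.0671, 0.141 and 1.49 TPM in mechanoreceptor libraries and 2.90, 11.9, 2.83 and 0.420 TPM in nociceptor libraries. Its 5 highest libraries were the 5 with 1259 TPM or more of mesenchyme markers. SFRP4 (chromosome 7, 37905932 to 37916817) had 0.325, 0.308 and 0.603 TPM in proprioceptor libraries, 0.443, 0.301 and 0.200 TPM in mechanoreceptor libraries and 0.638, 0.630, 1.06 and 1.09 TPM in nociceptor libraries, and all nociceptor libraries were above the other 6. FRZB, also called SFRP3, had 0.193, 0.612 and 0.442 TPM in proprioceptor libraries, 0.248, 0.193 and 0.379 TPM in mechanoreceptor libraries and 0.498, 0.636, 0.935 and 0.623 TPM in nociceptor libraries, with the mechanoreceptor libraries under the nociceptor ones. WIF1, NOTUM and DKK4 stayed under 1 TPM in every library. DKK2, chosen after its values were seen, had 0.194, 3.68 and 0.0671 TPM in proprioceptor libraries, 0.0944, 0.105 and 1.20 TPM in mechanoreceptor libraries and 0.0902, 0.347, 0.674 and 0.0366 TPM in nociceptor libraries, and exceeded 1 TPM in proprioceptor library 2 and mechanoreceptor library 3 only.

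R-spondins were low except in 1 library. RSPO2 had 1.17, 1.30 and 14.1 TPM in proprioceptor libraries, 3.34, 1.53 and 1.25 TPM in mechanoreceptor libraries and 2.44, 0.944, 0.842 and 1.74 TPM in nociceptor libraries, with proprioceptor library 3 far above the next library, at 3.34 TPM. RSPO4 had 0.858, 2.30 and 5.09 TPM in proprioceptor libraries, 3.78, 4.30 and 4.38 TPM in mechanoreceptor libraries and 0.802, 1.49, 1.29 and 3.70 TPM in nociceptor libraries. Each mechanoreceptor library was above each nociceptor library for RSPO4, by a small margin over nociceptor library 4. RSPO3 had 0.624, 0.471 and 0.285 TPM in proprioceptor libraries, 0.709, 0.106 and 0.614 TPM in mechanoreceptor libraries and 0.304, 0.525, 1.17 and 0.0424 TPM in nociceptor libraries, and RSPO1 stayed at 0.103 TPM or less. The receptors that bind R-spondins followed another order. LGR4 had 2.31, 15.2 and 9.29 TPM in proprioceptor libraries, 16.9, 11.9 and 15.1 TPM in mechanoreceptor libraries and 26.6, 16.1, 17.6 and 8.01 TPM in nociceptor libraries, LGR5 stayed between 0.0313 and 1.12 TPM, and LGR6 between 0.138 and 3.77 TPM.

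The 2 target genes differed in their pattern. AXIN2, a scaffold of β-catenin destruction that the pathway induces as feedback, had 0.142, 1.11 and 0.987 TPM in proprioceptor libraries, 0.615, 0.705 and 1.16 TPM in mechanoreceptor libraries and 0.360, 0.448, 0.793 and 1.10 TPM in nociceptor libraries. It stayed near 1 TPM or under in every library. LEF1, a DNA-binding partner of β-catenin (chromosome 4, 108047548 to 108168932), had 0.384, 7.97 and 1.32 TPM in proprioceptor libraries, 0.379, 0.135 and 6.90 TPM in mechanoreceptor libraries and 15.96, 14.5, 2.89 and 4.99 TPM in nociceptor libraries. LEF1 was over 1 TPM in proprioceptor libraries 2 and 3, mechanoreceptor library 3 and all nociceptor libraries. SP5, another direct target, was listed at 0 TPM in all 10 libraries.

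A set of genes was high in the same libraries of the proprioceptor and mechanoreceptor protocols. These libraries also stood apart over all tested genes, so the pattern is not particular to the family. The main axis of variation between libraries (first principal component) held 52.8% of the variance of all tested genes. Proprioceptor library 2, mechanoreceptor library 3 and nociceptor libraries 1 to 3 lay on one side of it and every other library on the other. FZD1, FZD2, SFRP2 and LEF1 were each higher in proprioceptor library 2 than in proprioceptor libraries 1 and 3, and higher in mechanoreceptor library 3 than in mechanoreceptor libraries 1 and 2. Among nociceptor libraries, library 4 was lowest for FZD1, FZD2 and SFRP2. LEF1 was lowest in nociceptor library 3 (2.89 TPM, against 4.99 TPM in library 4). FZD1 had 0.0219, 2.89 and 0.110 TPM in proprioceptor libraries, 0.0483, 0.0108 and 2.60 TPM in mechanoreceptor libraries and 2.25, 2.67, 4.58 and 0.417 TPM in nociceptor libraries, a range from 2 to 682 counts. WLS, which carries WNT proteins to the cell surface, had 4.12, 50.9 and 3.09 TPM in proprioceptor libraries, 3.39, 6.59 and 40.97 TPM in mechanoreceptor libraries and 54.8, 71.4, 107 and 8.06 TPM in nociceptor libraries. TCF7L2, a transcription partner of β-catenin, had 0.0923, 3.80 and 0.633 TPM in proprioceptor libraries, 0.322, 0.0768 and 4.65 TPM in mechanoreceptor libraries and 3.33, 5.58, 8.24 and 1.71 TPM in nociceptor libraries. The summed mesenchyme and glia markers were high in the same libraries. SOX2, a progenitor gene chosen after its values were seen, had 0.172, 3.44 and 0.0499 TPM in proprioceptor libraries, 0.172, 0 and 3.23 TPM in mechanoreceptor libraries and 5.16, 5.09, 9.56 and 0.902 TPM in nociceptor libraries. The 9 dividing-cell markers summed to 96.6 TPM in proprioceptor library 2 and to 146 to 181 TPM in nociceptor libraries 1 to 3, and to 33.7 to 52.9 TPM in the other 6, mechanoreceptor library 3 among them. The 12 neuron markers summed to 5106 to 6762 TPM in nociceptor libraries 1 to 3 and to 9346 TPM or more in every other library. With the mesenchyme level as a covariate, the log2 fold changes of mechanoreceptor over nociceptor libraries were -0.34 ± 0.64 for FZD1, -0.65 ± 0.79 for FZD2, -1.38 ± 0.75 for LEF1, -0.04 ± 0.56 for WLS and -0.87 ± 0.60 for TCF7L2. Without it they were -1.62 ± 1.68, -2.49 ± 1.92, -2.15 ± 1.33, -2.03 ± 1.21 and -2.13 ± 1.27 in the same order. The part of the glia, dividing-cell and progenitor markers in these levels was not tested.

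**Figure D3:**
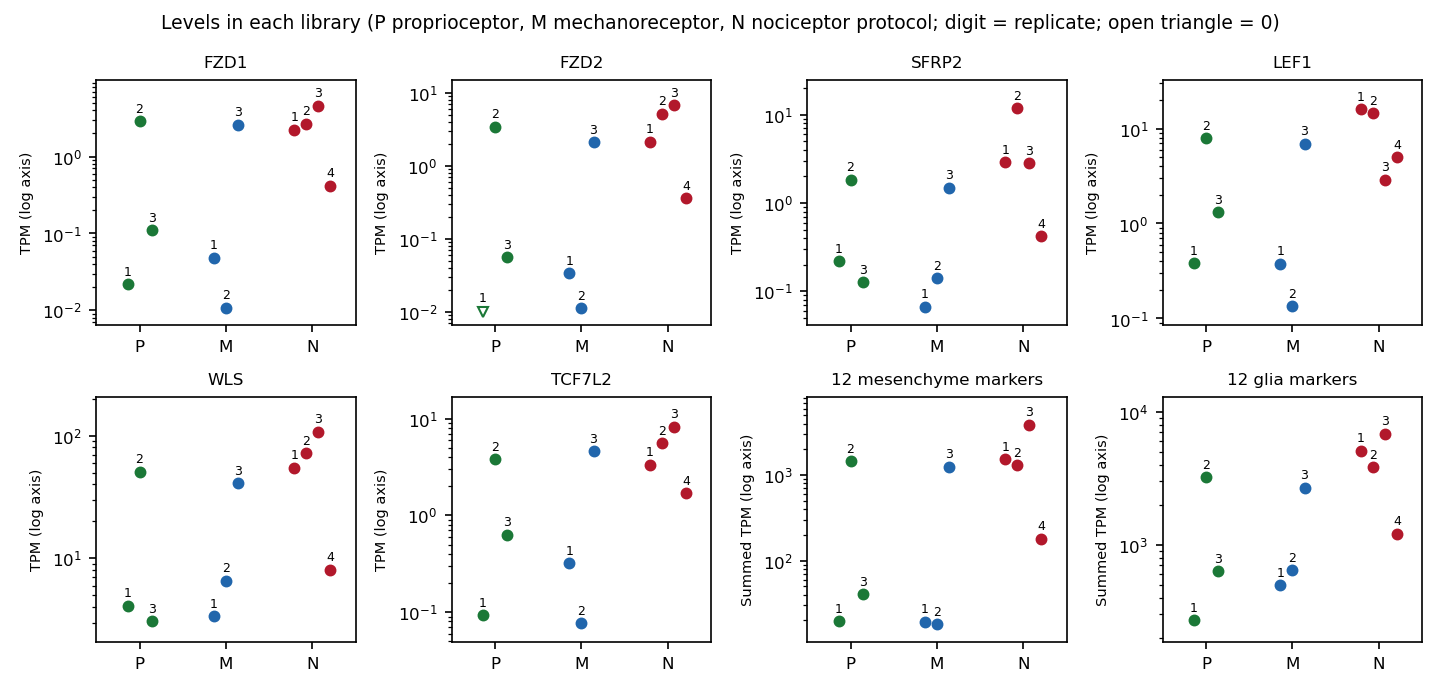
TPM (log axis) of FZD1, FZD2, SFRP2, LEF1, WLS and TCF7L2, and summed TPM (log axis) of 12 mesenchyme and 12 glia markers, by protocol; digits are library numbers and the open triangle is a value of 0. In each panel proprioceptor library 2 and mechanoreceptor library 3 lie above the other libraries of their protocol; nociceptor library 4 is the lowest nociceptor library in every panel except LEF1.

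Differences between protocols were tested with edgeR's quasi-likelihood test on all 16130 genes that passed the count filter, with Benjamini-Hochberg adjustment over all of them. Of the family, 37 genes passed the filter and 14 did not: 9 ligands (WNT1, WNT2, WNT3A, WNT6, WNT8A, WNT8B, WNT9B, WNT10A and WNT16), FZD10, DKK4, NOTUM, WIF1 and RSPO1. No gene in the table had an adjusted p below 0.05 in any contrast, so no family gene did (0% of all genes). At an unadjusted p below 0.05, counts of all genes were 998 between proprioceptor and nociceptor, 1320 between mechanoreceptor and nociceptor and 241 between proprioceptor and mechanoreceptor libraries. DESeq2 called 31 (0.127%), 137 (0.562%) and 1 (0.00410%) genes in these contrasts, with no family gene among them. For a difference between any of the 3 protocols, 7 family genes had an unadjusted p below 0.05 in edgeR, against 925 (5.73%) of all genes, and DESeq2 called 91 genes (0.373%), none of the family. Fold changes below are log2 values with standard errors, the first-named protocol over the second, on TMM-scaled counts. The contrasts share libraries and are not independent.

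Proprioceptor against nociceptor libraries asks how muscle-stretch and pain protocols differ. At unadjusted p below 0.05 there were 1 higher and 4 lower family genes of 37 (13.5%), against 3.05% higher and 3.14% lower, 6.19% together, over all genes. The family's median log2 fold change was -0.35 (16 higher, 21 lower), against 0.03 for all genes, and turned to 0.03 with the mesenchyme level as a covariate and to 0.04 without nociceptor library 3. It was -0.57 without proprioceptor library 2, -0.20 without nociceptor library 1 and -0.19 with the replicate block. The count of 5 genes became 11 without proprioceptor library 2 or without nociceptor library 4, 3 without mechanoreceptor library 2 or nociceptor library 1, 2 without nociceptor library 2 or 3, and 1 without proprioceptor library 3. Counts of all genes moved too, from 998 to 2704 without proprioceptor library 2 and to 2458 without nociceptor library 4. They were 832 without mechanoreceptor library 2, 614, 533 and 490 without nociceptor libraries 1, 2 and 3, and 600 without proprioceptor library 3.

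The receptors with the smallest p were FZD4, FZD6 and ROR1. FZD4 had a log2 fold change of -1.60 ± 0.57 (edgeR unadjusted p = 0.0170, adjusted p = 0.665), lower than the nociceptor mean in all 3 libraries. FZD6 had -1.48 ± 0.58 (edgeR unadjusted p = 0.0280, the same adjusted p), and ROR1 had -1.73 ± 0.81 (unadjusted p = 0.0557). With the mesenchyme level as a covariate these became -0.82 ± 0.48, -0.70 ± 0.52 and -0.73 ± 0.74. None of the 3 exceeded the spread between libraries after adjustment.

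For the ligands, WNT7B had 3 counts in all proprioceptor libraries against 110 in the nociceptor libraries, a ratio of 0.0390 per counted read (exact 95% interval 0.00792 to 0.117, counting error only). The interval pools reads and leaves out the spread between libraries. On TMM-scaled counts nociceptor library 4 (0.0671 CPM) lay under proprioceptor library 1 (0.0922 CPM). WNT7B passed the count filter only through libraries of the other protocols, where it was higher, so its p is no independent support. The fitted value, -4.36 ± 1.19, depends on the prior count at such low numbers (edgeR unadjusted p = 0.00394, adjusted p = 0.665). WNT2B had -0.95 ± 0.41 (unadjusted p = 0.0408 in the same fit), lower in 3 of 3 libraries. RSPO2 had 1.88 ± 0.84 (unadjusted p = 0.0476) through proprioceptor library 3 alone: without it the value was -0.34. SFRP4 had -1.05 ± 0.63 (edgeR adjusted p = 0.666), with -1.58 without proprioceptor library 1 and -0.38 without nociceptor library 3. By TPM, SFRP4, WNT2B and WNT7B were lower in every proprioceptor than in every nociceptor library, 3 of 37 (8.11%) against 1.45% of all genes, and no family gene was higher throughout, against 1.49%. On TMM-scaled counts only WNT2B remained of the 3, against 1.46% of all genes.

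Mechanoreceptor against nociceptor libraries asks how touch and pain protocols differ. Here 7 family genes of 37 (18.9%) had an unadjusted p below 0.05, all lower, against 8.18% of all genes, 4.59% lower and 3.59% higher. The median log2 fold change was -0.26 (17 higher, 20 lower), against 0.00 for all genes. It turned to 0.05 with the mesenchyme covariate and to 0.24 on log2(TPM + 1), where 26 family genes were tested and the median of all genes was 0.14. It was -0.99 without mechanoreceptor library 3, -0.58 without nociceptor library 4, -0.10 without nociceptor library 2 and -0.55 with the replicate block. The count of 7 genes became 12 without mechanoreceptor library 3, 11 without nociceptor library 4, 4 without nociceptor library 1 or 3, 3 without mechanoreceptor library 1 and 1 without mechanoreceptor library 2. Counts of all genes went from 1320 to 2435 without mechanoreceptor library 3 and to 2580 without nociceptor library 4. They were 1123 and 804 without nociceptor libraries 1 and 3, and 613 and 486 without mechanoreceptor libraries 1 and 2. The lower-only direction of the family genes was not kept throughout: 4 were higher and 7 lower without nociceptor library 4, 3 and 7 with the replicate block, and 7 and 14 under limma voom. All genes split into 1325 and 1255, 1217 and 1175, and 3240 and 3233 in these fits.

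The secreted antagonists made up 3 of the 7. SFRP4 had a log2 fold change of -2.41 ± 0.67 (edgeR unadjusted p = 0.00441, adjusted p = 0.598), FRZB had -1.44 ± 0.49 (unadjusted p = 0.0144) and SFRP2 had -3.16 ± 1.39 (unadjusted p = 0.0445). SFRP4 and FRZB were lower in 3 of 3 mechanoreceptor libraries than in any nociceptor library. With the mesenchyme level as a covariate SFRP4 had -2.47 ± 0.87 and FRZB -1.13 ± 0.58, while SFRP2 had -1.20 ± 0.86.

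The receptors FZD8, FZD6 and RYK made up 3 more. FZD8 had -1.34 ± 0.56 (edgeR unadjusted p = 0.0358), FZD6 had -1.35 ± 0.58 (unadjusted p = 0.0401) and RYK had -1.39 ± 0.60 (unadjusted p = 0.0419), all with an adjusted p of 0.598. With the covariate FZD8 had -1.52 ± 0.61, FZD6 -0.37 ± 0.57 and RYK -0.27 ± 0.39. The ligand WNT2B had -1.20 ± 0.41 (unadjusted p = 0.0145 in the same edgeR fit), and -0.84 ± 0.44 with the covariate. WNT5A had 0.99 ± 0.46 (unadjusted p = 0.0559) and RSPO4 0.94 ± 0.63 (unadjusted p = 0.164). The RSPO4 value was 0.61 without nociceptor library 1 and 1.64 without nociceptor library 4, and the RYK value was -2.15 without mechanoreceptor library 3.

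By TPM, FRZB, FZD8, SFRP4 and WNT2B were lower in every mechanoreceptor than in every nociceptor library, 4 of 37 (10.8%) against 1.84% of all genes. The same 4 were separated on TMM-scaled counts, where 2.59% of all genes were. WNT5A and RSPO4 were higher throughout by TPM, 5.41% against 8.05% of all genes, and on TMM-scaled counts no family gene was, against 5.28%. An added fit, limma voom with library weights, chosen after seeing the data, called 4362 genes (27.0%) in this contrast and 16 of the 37, 12 lower and 4 higher (WNT5B, WNT9A, WNT10B and RSPO4). It gave weights from 0.310 to 3.77, the highest to mechanoreceptor library 2 (3.22) and nociceptor library 2 (3.77), and called no gene in either other contrast.

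Proprioceptor against mechanoreceptor libraries compares the 2 large-fibre protocols. Of 37 family genes, 1 was higher and 2 lower at unadjusted p below 0.05 (8.11%), against 1.49% of all genes, 0.744% higher and 0.750% lower. Leaving out mechanoreceptor library 3 gave 5 genes, and leaving out mechanoreceptor library 1 or 2 gave 1. Counts of all genes were 714 in the first case and 117 and 175 in the others, against 241 with all libraries. The family's median log2 fold change was 0.19 (24 higher, 13 lower), against 0.04 for all genes. On log2(TPM + 1) it was -0.09, with a median of all genes of -0.21. It was -0.09 without proprioceptor library 2, 0.00 without mechanoreceptor library 2 (19 higher, 19 lower), 0.02 without mechanoreceptor library 1 and 0.52 without mechanoreceptor library 3.

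WNT7B had 3 counts in proprioceptor and 70 in mechanoreceptor libraries, a ratio of 0.0479 (exact 95% interval 0.00965 to 0.146, counting error only), with a fitted value of -4.10 ± 1.22 (edgeR unadjusted p = 0.00647, adjusted p = 1.000). Here too the reads were pooled, and WNT7B passed the filter only through libraries where it was higher. WNT5A had -1.33 ± 0.51 (unadjusted p = 0.0234) and WNT5B -0.88 ± 0.41 (unadjusted p = 0.0580), both lower in 3 of 3 proprioceptor libraries than in any mechanoreceptor library. These 3 ligands were the tested family genes separated by TPM, 8.11% against 5.02% of all genes lower, and no tested one was higher, against 0.868%. FZD10 and NOTUM, which did not pass the filter, were also lower in every proprioceptor library by TPM, at under 1 TPM in all libraries. FZD10 had 0, 0 and 0 counts in proprioceptor and 1, 1 and 6 in mechanoreceptor libraries. NOTUM had 4, 0 and 1 against 4, 5 and 5 counts. Proprioceptor library 1 had fewer counts in all than mechanoreceptor library 1, so NOTUM was not separated by counts per library size. No share over genes that failed the filter was taken. The 3 ligands WNT5A, WNT5B and WNT7B were separated on TMM-scaled counts as well, against 3.37% of all genes. FZD8 had 1.31 ± 0.58 (edgeR unadjusted p = 0.0472) and SFRP4 1.36 ± 0.69 (unadjusted p = 0.0747); on TMM-scaled counts both were higher throughout, against 2.31% of all genes. Without proprioceptor library 1 the SFRP4 value was 0.86. RSPO2 had 1.63 ± 0.92 (edgeR adjusted p = 1.000) with proprioceptor library 3 and -0.54 without it. With the mesenchyme covariate WNT7B had -4.05 ± 1.12, WNT5A -1.27 ± 0.50 and WNT5B -0.77 ± 0.34.

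**Figure D4:**
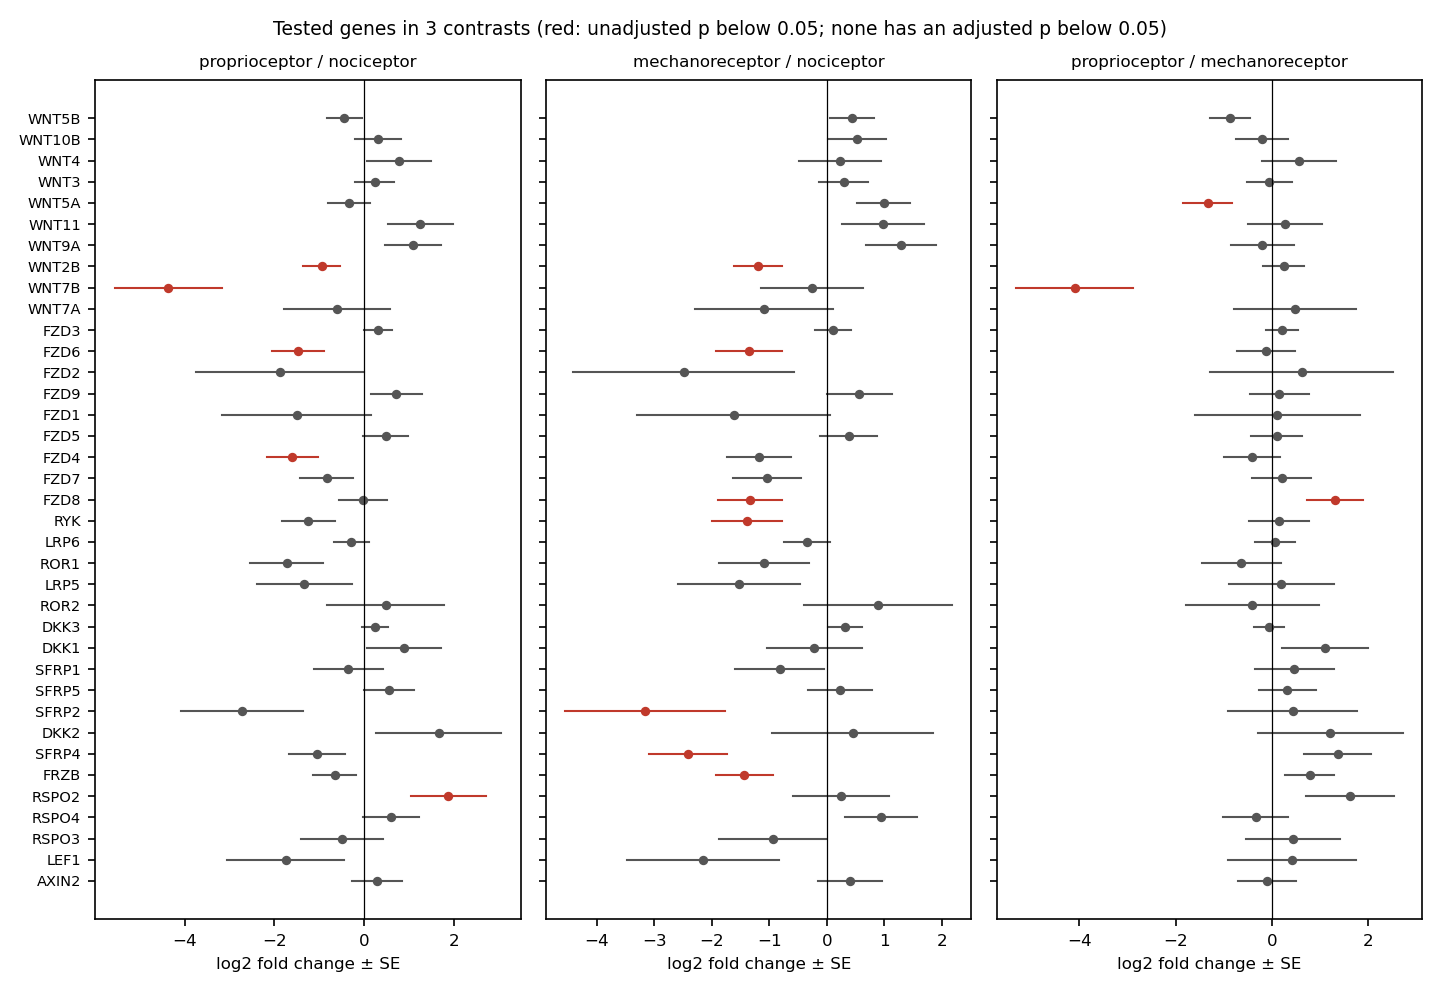
Log2 fold change with its standard error (edgeR) of the 37 tested genes in the 3 contrasts, ordered by role; red marks an unadjusted p below 0.05, and no adjusted p was below 0.05. WNT7B lies at -4.36 and -4.10 in the 2 contrasts of proprioceptor libraries, and the 7 red genes of the mechanoreceptor against nociceptor contrast all lie under 0.

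The rest of the pathway was followed in 4 lists: 15 genes of WNT secretion and the cell surface, 20 of β-catenin transduction, 13 of planar polarity and 8 feedback and target genes, of which 54 passed the filter. Of the 20 β-catenin transduction genes, 12 reached 1 TPM in proprioceptor library 1 and 16 to 19 in each other library. CTNNB1, which encodes β-catenin, had 18.8, 131 and 85.4 TPM in proprioceptor libraries, 55.6, 53.6 and 82.9 TPM in mechanoreceptor libraries and 131, 95.98, 89.9 and 46.1 TPM in nociceptor libraries. PORCN, which attaches the lipid to WNT proteins, had 13.7, 19.98 and 13.9 TPM in proprioceptor libraries, 15.3, 19.3 and 24.8 TPM in mechanoreceptor libraries and 9.02, 18.6, 15.8 and 27.4 TPM in nociceptor libraries. RNF43 (0.0888 to 3.77 TPM) and ZNRF3 (0.364 to 2.57 TPM), ubiquitin ligases that remove FZD receptors, were low, as was the feedback inhibitor NKD1 (0.0297 to 0.788 TPM).

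Between proprioceptor and nociceptor libraries, 2 of the 54 were higher and 5 lower at unadjusted p below 0.05 (13.0%), against the 6.19% of all genes, and 4 of the 5 lower ones were surface genes. GPC3, a glypican that modulates WNT at the surface, had 0.584, 2.01 and 0.855 TPM in proprioceptor libraries, 0.440, 0.984 and 0.763 TPM in mechanoreceptor libraries and 2.22, 3.13, 8.41 and 4.36 TPM in nociceptor libraries. Its log2 fold change was -2.30 ± 0.67 (edgeR unadjusted p = 0.00587, adjusted p = 0.665), GPC6, a related glypican, had -1.55 ± 0.60 (unadjusted p = 0.0250) and TNFRSF19, a receptor and WNT target, had -1.74 ± 0.71 (unadjusted p = 0.0328). The count was 13 without proprioceptor library 2, 4 without proprioceptor library 1, 2 without nociceptor library 1, 2 or 3, and 1 without proprioceptor library 3. Counts of all genes were 2704, 824, 614, 533, 490 and 600 in the same order, against 998 with all libraries.

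Between mechanoreceptor and nociceptor libraries, 3 were higher and 1 lower (7.41%), against the 8.18% of all genes. GPC3 was lower in 3 of 3 libraries than in any nociceptor library, with -3.20 ± 0.70 (edgeR unadjusted p = 0.000873, adjusted p = 0.598), and DESeq2 called it (DESeq2 adjusted p = 0.000378). GSK3A, a kinase that marks β-catenin for destruction, had 0.83 ± 0.32 (unadjusted p = 0.0267) and NKD2, an inhibitor that binds dishevelled, 1.25 ± 0.55 (unadjusted p = 0.0440). The count was 13 without mechanoreceptor library 3, 10 without nociceptor library 4, 6 without proprioceptor library 2, and 1 without mechanoreceptor library 1 or 2 or nociceptor library 1 or 2. Counts of all genes were 2435, 2580, 1443, 613, 486, 1123 and 765 in the same order, against 1320 with all libraries. Between proprioceptor and mechanoreceptor libraries none of the 54 passed at unadjusted p below 0.05, against 1.49% of all genes. Without proprioceptor library 2, 738 of all genes and 2 of the 54 did, and without mechanoreceptor library 3, 714 and 4 did. The 3 with the smallest p were TLE3, a corepressor, at -1.19 ± 0.66, LGR5 at -1.52 ± 0.91 and LGR4 at -0.71 ± 0.46, with an edgeR adjusted p of 1.000 each.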

How the data were processed

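Human sensory neuron cultures were profiled by bulk RNA-seq in 10 libraries (proprioceptor 3, mechanoreceptor 3, nociceptor 4), grouped by their titles. Trizol RNA, Clontech Ultra Low v4 cDNA and NexteraXT libraries were used, per the labels' protocols; this chemistry carries no strand information, so a gene and an overlapping antisense gene share reads. Quantification was by kallisto 0.50.1 against GRCh38.p14, as the submitters' processing notes list them. Estimated counts and TPM, per gene and per transcript, were deposited by the authors; the summing of transcripts to genes is not described in the labels. Reads shared by similar genes or transcripts were divided by estimation, an error the deposited values do not show. The transcript table of estimated counts was not used.

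One of 30358 gene entries had a blank name (0.733% to 1.66% of counts, 2.81% to 8.80% of TPM per library) and was left out. Deposited counts of 27891186 to 44541262 per library were rounded to whole numbers and tested with edgeR 4.0.16 in R 4.3.3 (filterByExpr, 16130 genes, TMM scaling, a quasi-likelihood fit of 1 mean per protocol, two-sided, Benjamini-Hochberg threshold 0.05); the common biological coefficient of variation was 0.550. Intervals and floors (3 counts) cover counting error only, since PCR reads are not independent molecules. No 2 libraries of a protocol were copies (chi-square of at least 123 per degree of freedom). On simulated data (proprioceptor against nociceptor, 15905 genes), the fit returned a median log2 change of 1.91 for 4-fold changes, with 35% called, and 3.98 for 16-fold changes, with 88% called.

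Levels are given for the 4 genes of each role with the highest mean TPM, for AXIN2 and LEF1, for the 6 tested genes with the smallest p per contrast, and for tested genes whose libraries do not overlap in TPM. This rule was met by 29 genes. Library values of FZD1, SFRP2, ROR2, DKK2 and WIF1, which did not meet it, are given as well. Alternatives were DESeq2 1.42.0 and its size factors, no count filter, limma 3.58.1 on log2(TPM + 1) and log2(TPM + 0.1), only the 2 protocols compared, the replicate number as a block, the mesenchyme marker level as a covariate, other detection limits, and leaving out each library; limma voom with library weights was added after seeing the data. Transcripts were named through GENCODE v29, and promoters came from RefSeq (GRCh38.p14). The genes, lists and tests were chosen with earlier results of these data known.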

Additional observations from a re-analysis of the deposited data

Results flagged for a closer look

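In groups of 4 nociceptor libraries, a library was looked at again when its gap to the nearest other library as a share of the group's range exceeded Dixon's 95% critical value for 4 samples. Of 29 groups checked, 5 met this, while chance gives about 1 in 20. For WNT5B, nociceptor library 4 was high at 40.3 TPM, with a gap of 0.859 of the range. For WNT10B the same library was high at 21.98 TPM, with a gap of 0.875, and for DKK3 at 408 TPM, with a gap of 0.954. For WNT7B it was low at 0.0269 TPM, with a gap of 0.837. For RSPO1, nociceptor library 1 had 0.0249 TPM, from 2 counts, and the other 3 were at 0, which gives a gap of 1.000. Nociceptor library 4 also had the lowest mesenchyme sum of the 4, at 181 TPM against 1300.1 to 3892 TPM in the others; the part of this in the 4 genes was not tested.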

How the results depend on the processing

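No gene was called under edgeR with either scaling, without the filter, under limma on TPM, with 2 protocols only, with the block, with the covariate or without any 1 library (0 to 0). DESeq2 called 31 genes (proprioceptor against nociceptor), 137 (mechanoreceptor against nociceptor), 1 (proprioceptor against mechanoreceptor) and 91 (any protocol), and limma voom with library weights called 0, 4362, 0 and 2797. Counts of family genes at unadjusted p below 0.05 moved too. Between proprioceptor and nociceptor libraries they were 9 with no filter, 9 under DESeq2, 3 on log2(TPM + 1), 3 on log2(TPM + 0.1), 3 with the covariate and 14 under voom. Counts of all genes were 1417, 1598, 822, 814, 402 and 3977 in the same order, of 24450, 24370, 14428, 14428, 16130 and 16130 tested. Family genes tested were 51, 50, 26, 26, 37 and 37. Between mechanoreceptor and nociceptor libraries family counts were 11 under DESeq2, 3 and 3 on the TPM scales, 3 with the covariate and 21 under voom, and between proprioceptor and mechanoreceptor libraries 1 and 1 on the TPM scales. Counts of all genes were 1872, 1312, 1249, 598 and 6473 in the former contrast and 257 and 243 in the latter. Pathway list counts were 4 on log2(TPM + 1), 4 with 2 protocols only, 4 with the covariate and 23 under voom for the first contrast. They were 12 under DESeq2, 2 with the covariate and 30 under voom for the second, and 1 and 1 on the TPM scales, 2 with the covariate and 4 under voom for the third. Counts of all genes not given above were 818 with 2 protocols only in the first contrast. In the third they were 474 with the covariate and 822 under voom. Without 1 library, family counts ranged from 1 to 11, 1 to 12 and 1 to 5, and pathway counts from 1 to 13, 1 to 13 and 0 to 4. Counts of all genes then ranged from 490 to 2704, 486 to 2580 and 117 to 738. The cause of these moves was not tested.

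Replicate numbers showed no uniform pairing of libraries: correlations of deviations at equal numbers ran from -0.63 to 0.49, and 4 of 9 exceeded 0.1. Whether libraries of equal number shared a batch was not tested. With the replicate block, 9 family genes and 11 pathway genes had an unadjusted p below 0.05 between proprioceptor and nociceptor libraries and 15 pathway genes between mechanoreceptor and nociceptor libraries, still with 0 called. Counts of all genes rose with the block as well, from 998 to 1974 and from 1320 to 2392 of 16130 in these contrasts.

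Of 377 alternatives over 21 fold changes, 369 kept direction and side of the threshold. No fold change passed the threshold in the main fit, so an alternative with no call was counted as kept by its sign alone. The 21 were also picked for small p or separated libraries, so this count is no measure of how firm they are. Sizes moved: SFRP4 between proprioceptor and nociceptor libraries ran from -1.58 to -0.38 without 1 library. RSPO2 reversed without proprioceptor library 3, to -0.34 against nociceptor and -0.54 against mechanoreceptor libraries (without 1 library, -0.34 to 2.30 and -0.54 to 2.14), and 6 values passed the threshold under voom between mechanoreceptor and nociceptor libraries. On TMM-scaled CPM, which has no length correction, the median sums per role were 68.2 for ligands, 110.3 for FZD receptors, 59.4 for co-receptors and 575 for antagonists. The median log2 fold change of all genes was 0.00 (mechanoreceptor against nociceptor), 0.04 (proprioceptor against mechanoreceptor) and 0.03 (proprioceptor against nociceptor) with TMM, against 0.14, -0.21 and -0.09 in limma on log2(TPM + 1) and 0.17, -0.27 and -0.11 on log2(TPM + 0.1), where the model and the genes tested also differ. Genes at unadjusted p below 0.05 between mechanoreceptor and nociceptor libraries split into 579 higher and 741 lower with TMM, 445 and 887 with DESeq2 size factors, and 750 and 562 on log2(TPM + 1). Depth limits WNT7B and other genes with under 50 counts.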

Other observations

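WIF1, a secreted inhibitor that binds WNT ligands, did not pass the count filter and was chosen after its values were seen. It had 0 counts in each proprioceptor library, 0, 2 and 0 in mechanoreceptor libraries and 7, 8, 4 and 7 in nociceptor libraries. With a floor of 3 counts set over the proprioceptor libraries, WIF1 was 6.06-fold lower there than in nociceptor libraries. The 26 nociceptor counts were taken as exact in this, so 6.06 is not a lower bound. The ratio of mechanoreceptor to nociceptor libraries was 0.0984 (exact 95% interval 0.0113 to 0.393). These values cover counting error only and have no test between protocols.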
